A study of Rattus norvegicus with 19 samples.

Results

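The genes described here handle the storage, breakdown and uptake of fat. They are the droplet coat genes Plin1, Plin2 and Plin4, the droplet fusion genes Cidec and Cidea, the lipase genes Lipe and Pnpla2, and the uptake genes Lpl, Fabp4 and Cd36. They were chosen by function, with earlier results of these data known. A probe was taken for a gene when the RefSeq accession in the array annotation mapped to its symbol. This gave 11 probes for 8 of the 10 genes, out of 15168 gene symbols with a probe. No probe mapped to Plin1 or Plin4, which were not analysed here, and all 8 others passed the filter on dim probes.

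RNA was measured on 1 single-colour array per sample in 13 mammary carcinomas and 6 normal mammary glands. All rats were females of an F1 cross between the Sprague-Dawley and Copenhagen strains. The series describes the carcinomas as induced by radiation, and its protocol gives whole-body gamma-irradiation of 4 Gy at 7 weeks of age or no treatment. Whether a given normal gland had been irradiated is not labelled, nor is the age at sampling, so carcinoma and irradiation cannot be told apart. Samples are not tied to animals, and the p-values measure only the spread between these samples.

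White fat cells of the mammary gland hold triglyceride in a single large droplet, whereas secretory epithelial cells make smaller droplets that leave the cell as milk fat. Perilipins coat these droplets and control access to them. Cide proteins sit where droplets touch and pass lipid from one to another. Adipose triglyceride lipase, the product of Pnpla2, starts the breakdown of stored triglyceride, and hormone-sensitive lipase, the product of Lipe, continues it. Lipoprotein lipase, the product of Lpl, frees fatty acids from circulating lipoproteins, Cd36 takes them across the cell membrane, and Fabp4 carries them inside fat cells.

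RefSeq promoter sequences (GRCr8 assembly, 250 bases before to 50 bases after a start site) were given for 5 of the 8 measured genes. They are shown because the changes of these 5 genes in carcinomas differed widely in size. Capitals mark matches to any of 6 motifs searched on both strands. The 5 windows are Plin2 at chr5:106228969-106229268 (minus strand), Cidec at chr4:148137066-148137365 (minus strand), Cidea at chr18:63164567-63164866 (plus strand), Pnpla2 at chr1:205982029-205982328 (plus strand) and Cd36 at chr4:18246332-18246631 (plus strand).
Plin2: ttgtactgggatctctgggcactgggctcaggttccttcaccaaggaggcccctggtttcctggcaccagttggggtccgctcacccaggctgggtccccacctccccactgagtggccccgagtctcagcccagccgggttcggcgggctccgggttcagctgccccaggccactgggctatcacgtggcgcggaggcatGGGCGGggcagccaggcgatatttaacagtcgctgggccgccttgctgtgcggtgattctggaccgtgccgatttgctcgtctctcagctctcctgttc
Cidec: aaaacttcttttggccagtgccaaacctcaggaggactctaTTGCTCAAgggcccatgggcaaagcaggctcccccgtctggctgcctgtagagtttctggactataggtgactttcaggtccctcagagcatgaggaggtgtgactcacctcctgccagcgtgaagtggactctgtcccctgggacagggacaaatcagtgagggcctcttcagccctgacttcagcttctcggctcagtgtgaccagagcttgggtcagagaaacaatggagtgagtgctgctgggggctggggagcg
Cidea: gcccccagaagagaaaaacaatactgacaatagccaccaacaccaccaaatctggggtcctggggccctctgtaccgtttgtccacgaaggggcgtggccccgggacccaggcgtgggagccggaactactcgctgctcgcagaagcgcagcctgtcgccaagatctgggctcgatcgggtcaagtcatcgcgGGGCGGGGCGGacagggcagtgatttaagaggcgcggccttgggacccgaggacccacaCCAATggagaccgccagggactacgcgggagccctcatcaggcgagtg
Pnpla2: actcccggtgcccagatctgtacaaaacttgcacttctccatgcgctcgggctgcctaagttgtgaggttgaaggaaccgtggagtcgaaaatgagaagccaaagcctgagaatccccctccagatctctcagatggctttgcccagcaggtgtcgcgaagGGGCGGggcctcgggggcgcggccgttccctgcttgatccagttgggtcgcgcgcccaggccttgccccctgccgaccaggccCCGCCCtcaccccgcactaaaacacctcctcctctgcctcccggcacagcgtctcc
Cd36: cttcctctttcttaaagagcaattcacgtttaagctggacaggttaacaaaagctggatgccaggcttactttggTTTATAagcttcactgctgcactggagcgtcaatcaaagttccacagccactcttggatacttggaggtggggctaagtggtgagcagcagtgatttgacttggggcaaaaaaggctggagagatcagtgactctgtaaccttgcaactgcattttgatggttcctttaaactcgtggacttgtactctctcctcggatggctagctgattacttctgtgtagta

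Cidec held a match to the C/EBP site TTGCNNAA, read as TTGCTCAA at position -209, where the start site base is position 0. This motif was in 10.6% of 33469 promoter windows of the same length. Cidea held GC boxes (GGGCGG) at positions -57 and -52, which overlap, and CCAAT at position 2. Pnpla2 held GC boxes at -89 and, on the minus strand, at -6, and the Plin2 window held one at -49. Over all windows, GGGCGG was in 33.1% and CCAAT in 37.5%. A second RefSeq start of Plin2 (chr5:106228488-106228787, minus strand), not printed, held CCAAT on the minus strand at position 32. Cd36 held TATAAA on the minus strand at position -175, a motif in 14.2% of windows. The PPAR response element, AGGTCA repeated after 1 spacer base, and a relaxed form with AGGNCA in both places were in none of the 6 windows of these genes, and in 0.0538% and 0.415% of all windows. A match is a run of letters and was not tested for binding.

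Across the 8 genes, 7 were lower in carcinomas and 0 were higher (limma, adjusted p under 0.05). Plin2 did not pass, although all 8 were lower at an unadjusted p under 0.05. Of the 12789 genes tested, 13.2% were lower and 9.73% higher in carcinomas. The median log2 change, carcinoma minus normal gland, was -3.13 over the 8 genes and 0.01 over all genes tested. For 3 of the 8 genes, Cidec, Pnpla2 and Fabp4, all 13 carcinomas lay below all 6 normal glands, an arrangement found in 1.93% of the genes tested. For 0 of the 8 did all carcinomas lie above all normal glands, against 0.54% of the genes tested. Because the genes were chosen with earlier results of these data known, these counts are a description and no independent test. The samples are bulk tissue, in which fewer cells of a type and less RNA per cell cannot be told apart.

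All 10 adipocyte markers tested were lower in carcinomas as well, with a median log2 change of -7.12. The largest changes were -10.26 for Adipoq, which encodes the fat cell hormone adiponectin, and -9.84 for Rbp4, a retinol carrier. The summed level of the 10 markers, relative to the array's 75th percentile, was 1.22 to 9.98 in carcinomas and 257 to 651 in normal glands. Adipoq and Rbp4 cleared the background on 8 and 7 of the 13 carcinoma arrays, against 6 of 6 normal gland arrays each. Under normexp background correction their changes were -7.9 and -7.4, so the sizes depend on the background correction. The part of fat cell content in the changes of the storage and uptake genes was not tested.

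Carcinoma arrays were also brighter. Their 75th percentile of intensity was 485 to 1428, against 296 to 673 on normal gland arrays, and 62.3 to 84.2% of their spots were well above background, against 65.5 to 77.2%. With the log2 of this brightness as a covariate, 3 of the 8 genes passed, namely Cidec, Pnpla2 and Fabp4, and 5 were lower at an unadjusted p under 0.05. The 13.2% of all genes above is from the fit without the covariate, and the share with it is not given here. Only carcinoma 7, at 485, lay in the normal gland range, and the next dimmest carcinoma was at 866. Brightness thus nearly separated the groups, and here and below the covariate cannot tell brightness and group apart. It also raised the standard error (SE), for Plin2 from 0.52 to 0.88. The arrays lay on 3 slides, each with both groups, and all 8 genes were lower in carcinomas within each slide. Slide 3 held 5 carcinomas and 1 normal gland, so each change given within slide 3 is set against a single gland.

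**Figure D1:**
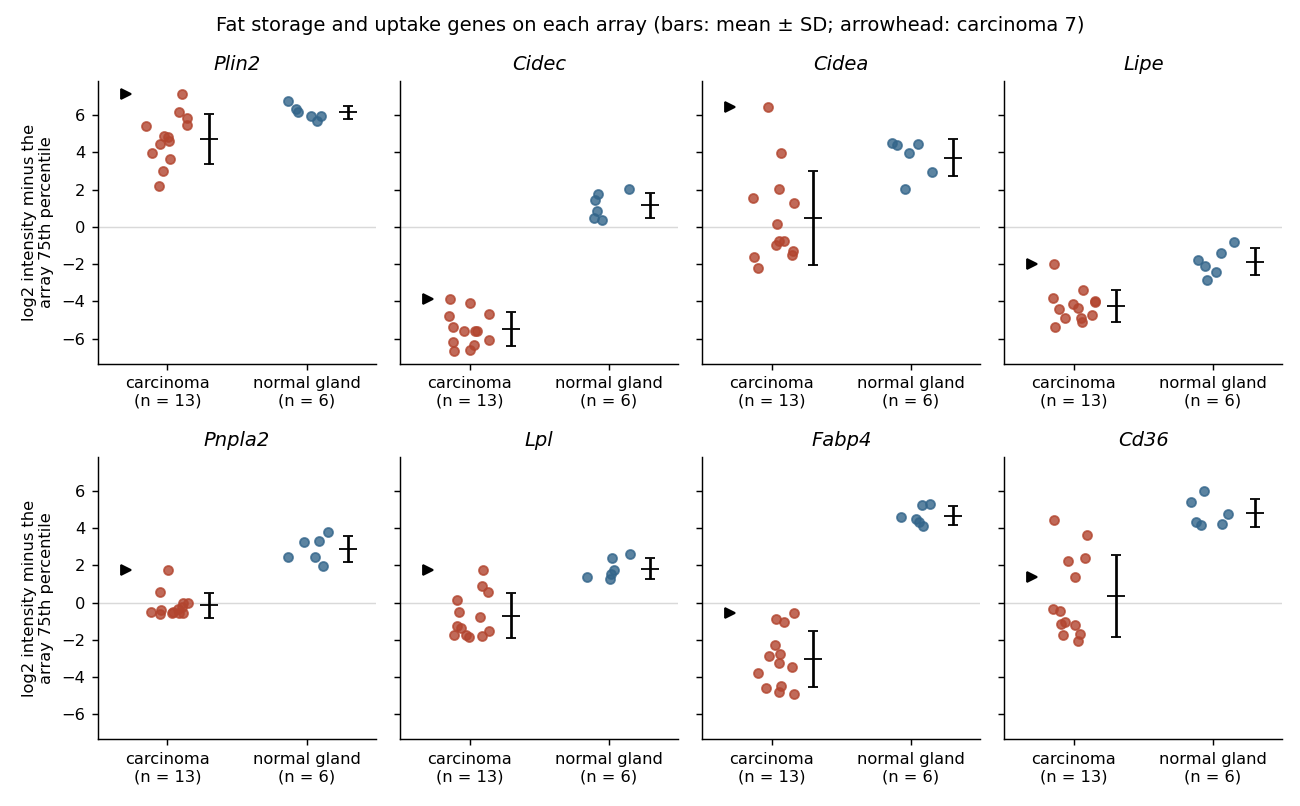
Each point is 1 array, with carcinomas in red on the left and normal glands in blue on the right of each panel; the y axis is the log2 intensity minus the array's 75th percentile, and black bars give the mean ± SD (n = 13 and n = 6). The carcinoma and normal gland points do not overlap for Cidec, Pnpla2 and Fabp4, and the arrowhead marks carcinoma 7, the highest carcinoma for 7 of the 8 genes.

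Plin2 encodes the perilipin found on droplets of most cell types, milk fat globules included. Its log2 value, relative to the 75th percentile of the array as are all levels below, was 2.17 at the lowest, 4.83 at the median and 7.14 at the highest carcinoma, against 5.71, 6.07 and 6.75 in normal glands. Of the carcinomas, 10 lay below all normal glands, 2 (carcinomas 2 and 11) lay among them and carcinoma 7 lay above them. The log2 change was -1.41 ± 0.52 (SE), which did not pass (limma, adjusted p = 0.0537). It passed when carcinoma 2, 7 or 11, the ones not below all normal glands, was left out (-1.50, -1.61 and -1.53, limma adjusted p = 0.0426, 0.0147 and 0.0375). Without normal gland 4 it was -1.29 (limma adjusted p = 0.111), and under quantile normalization -0.89 (limma adjusted p = 0.219). Of 39 alternatives in processing or samples, 8 passed. Within slides 1, 2 and 3 the change was -1.96, -1.07 and -0.98. With array brightness as a covariate it was -0.41 (adjusted p = 0.845). The spread over carcinomas was wide, with an SD of 1.34 against 0.37 in normal glands. The median SD over all genes was 0.60 in carcinomas and 0.52 in normal glands.

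Cidec, also known as Fsp27, promotes the single large droplet of white fat cells. Its log2 value was -6.65 at the lowest, -5.58 at the median and -3.89 at the highest carcinoma, against 0.37, 1.17 and 2.01 in normal glands. The groups did not overlap. The log2 change was -6.65 ± 0.40 (SE), or 101-fold lower in carcinomas (limma, adjusted p = 2.67e-10). Under normexp background correction it was -4.62, or 24.6-fold lower, so the size depends on the background correction. The probe cleared the background on 10 of the 13 carcinomas and on 6 of 6 normal glands. This was the 17th largest fall among all genes tested. Slides 1, 2 and 3 on their own gave -7.36, -5.28 and -6.77.

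Cidea is a relative of Cidec that is best known from brown fat and is also expressed in the lactating mammary gland of mice. Its log2 value was -2.23 at the lowest, -0.78 at the median and 6.42 at the highest carcinoma, against 2.05, 4.17 and 4.48 in normal glands. Carcinoma 7 lay above all normal glands, carcinoma 3 lay among them at 3.97, and the other 11 lay below. The log2 change was -3.23 ± 0.98 (SE), or 9.37-fold lower in carcinomas (limma, adjusted p = 0.0223). The call was lost without normal gland 2 (adjusted p = 0.0576) or normal gland 3 (adjusted p = 0.0601), and with array brightness as a covariate the change was -0.40 (adjusted p = 0.919). Within slides 1, 2 and 3 it was -3.04, -2.90 and -3.20. The carcinomas spanned a 402-fold range of levels, against 5.39-fold in normal glands, and only 106 of the 12789 genes had a larger SD over carcinomas. A second probe gave a log2 change of -2.95, and its values followed the first with r = 0.936 over the 13 carcinomas.

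Of 5 brown fat markers tested, 2 were lower in carcinomas and 3 did not pass, with a median log2 change of 0.45. At an unadjusted p under 0.05, 1 was higher. The potassium channel gene Kcnk3 changed by -3.73 and Cpt1b, which admits fatty acids to mitochondria in muscle and brown fat, by -1.38, while Ucp1, Dio2 and Ppargc1a had log2 changes of 0.45, 0.84 and 1.18. The probes of Ucp1, Dio2 and Ppargc1a cleared the background on 6, 11 and 9 of the 13 carcinomas. In the 6 normal glands they did so on 0, 3 and 0 arrays. Their changes, and the list median, which is that of Ucp1, therefore rest on values near background.

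**Figure D2:**
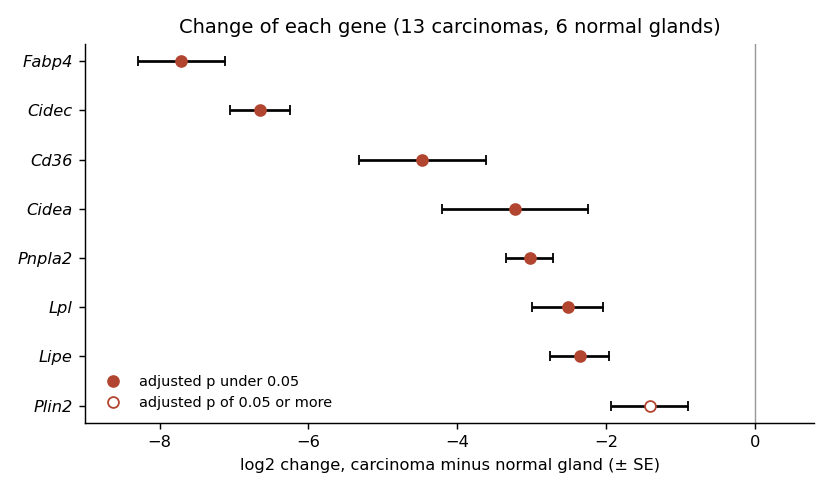
Each row is 1 gene, ordered by size; the x axis is the log2 change, carcinoma minus normal gland, and bars give ± SE from the limma fit over 13 carcinomas and 6 normal glands. Changes run from -7.71 for Fabp4 to -1.41 for Plin2, whose open point did not pass the test.

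Pnpla2 encodes adipose triglyceride lipase. Carcinomas ran from a log2 value of -0.59 through a median of -0.41 to 1.76, against 1.94, 2.86 and 3.79 in normal glands. The groups did not overlap, and carcinoma 7 came nearest to the normal glands. Pnpla2 was 8.14-fold lower in carcinomas, a log2 change of -3.02 ± 0.31 (SE) (limma, adjusted p = 1.2e-06). Slides 1, 2 and 3 on their own gave -3.25, -2.34 and -3.96.

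Lipe encodes hormone-sensitive lipase. Its log2 value was -5.37 at the lowest, -4.34 at the median and -1.99 at the highest carcinoma, against -2.83, -1.92 and -0.81 in normal glands. Carcinoma 7 lay among the normal glands and the other 12 lay below them. The log2 change was -2.36 ± 0.40 (SE), or 5.12-fold lower in carcinomas (limma, adjusted p = 0.000372). Within slides 1, 2 and 3 it was -2.69, -1.76 and -3.39, and with array brightness as a covariate it was -1.44 (adjusted p = 0.319). Under normexp background correction the change was -1.735, or 3.3-fold lower. A second Lipe probe gave -1.95, and its values followed the first less closely than for Cidea (r = 0.683 over the 13 carcinomas).

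Other genes of lipolysis and its control were mostly lower. Of 22 tested out of 24 listed, 13 were lower in carcinomas, 0 were higher and 9 did not pass, with a median log2 change of -1.87. Among all genes tested 13.2% were lower. At an unadjusted p under 0.05 the limma counts were 14 lower and 0 higher. The largest changes were -9.38 for Ces1d, a carboxylesterase, -7.15 for Aqp7, the channel through which fat cells release glycerol, and -6.32 for Adrb3, the beta-3 adrenergic receptor that starts lipolysis in rodent fat. These 3 probes cleared the background on 6, 2 and 6 of the 13 carcinomas, against 6 of 6 normal glands each, so their sizes rest largely on values near background. Under normexp they were -6.94, -4.07 and -3.79. Mgll, the lipase of the last step, changed by -3.04. Abhd5, the activator of adipose triglyceride lipase, changed by -2.31. G0s2, which inhibits the same lipase, changed by -1.95, so activator and inhibitor were both lower. With array brightness as a covariate 6 of the 22 were lower.

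Of 13 other droplet proteins tested out of 17 listed, 3 were lower in carcinomas, 0 were higher and 10 did not pass, with a median log2 change of -0.39. The share lower over all genes tested was 13.2%. At an unadjusted p under 0.05 the limma counts were 4 lower and 0 higher. Those lower were Cav1 and Cav2, which encode caveolae proteins, at -1.61 and -0.94, and Fitm2, which is needed for droplets to bud, at -1.29. With array brightness as a covariate 0 of the 13 passed in limma, and 3 were lower at an unadjusted p under 0.05.

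Lpl encodes lipoprotein lipase. The lowest, median and highest carcinoma had log2 values of -1.82, -1.25 and 1.77, against 1.26, 1.63 and 2.61 in normal glands. Carcinoma 7 lay among the normal glands and the other 12 lay below them. Lpl was 5.71-fold lower in carcinomas, a log2 change of -2.51 ± 0.48 (SE) (limma, adjusted p = 0.0011). Within slides 1, 2 and 3 it was -3.08, -1.72 and -3.18, and with array brightness as a covariate it was -1.70 (adjusted p = 0.35).

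Fabp4 encodes the fatty acid binding protein of fat cells, which capillary endothelium and macrophages also express. Its log2 value was -4.89 at the lowest, -3.22 at the median and -0.55 at the highest carcinoma, against 4.12, 4.53 and 5.30 in normal glands. The groups did not overlap, and even the highest carcinoma was far below the lowest normal gland. The log2 change was -7.71 ± 0.58 (SE), or 209-fold lower in carcinomas (limma, adjusted p = 9.3e-09). This was the 7th largest fall among all genes tested. Under normexp background correction the change was -6.89, or 118-fold lower, so the size depends on the background correction. The change was -7.53, -7.87 and -8.12 within slides 1, 2 and 3.

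Cd36 encodes a fatty acid transporter of fat cells, capillary endothelium and macrophages, and its protein is part of the milk fat globule membrane. Carcinomas had log2 values from -2.08 through a median of -0.47 to 4.46, against 4.16, 4.54 and 5.98 in normal glands. Carcinoma 6 lay among the normal glands, and carcinomas 11, 3 and 12 came next at 3.63, 2.38 and 2.21. Cd36 was 22.2-fold lower in carcinomas, a log2 change of -4.47 ± 0.85 (SE) (limma, adjusted p = 0.00114). The change was -5.19, -3.77 and -5.18 within slides 1, 2 and 3, and with array brightness as a covariate it was -4.83 (adjusted p = 0.13). Carcinomas spanned a 93.1-fold range of Cd36 levels, against 3.54-fold in normal glands. A second Cd36 probe gave -4.59 and followed the first with r = 0.981 over the 13 carcinomas.

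Markers of the other cells that express Fabp4 and Cd36 were lower too. Of 7 endothelial markers tested, 6 were lower in carcinomas, 0 were higher and 1 did not pass, with a median log2 change of -1.95. Cldn5, a tight junction gene, changed by -3.24 and Pecam1 by -2.33. Over all genes tested, 13.2% were lower. Of 8 macrophage markers, 5 were lower, 0 were higher and 3 did not pass, with a median of -1.56, and the scavenger receptor genes Cd163 and Mrc1 changed by -3.20 and -1.82. The summed level of the endothelial markers was 1.70 to 4.95 in carcinomas and 6.47 to 21.4 in normal glands, and that of the macrophage markers was 14.2 to 108 in carcinomas and 68.5 to 179 in normal glands. Their part in the Fabp4 and Cd36 changes was not tested. At an unadjusted p under 0.05, 4 of the 7 endothelial and 1 of the 8 macrophage markers were lower with array brightness as a covariate, against 6 and 8 without it. Of 7 fibroblast markers, 2 were lower, Pi16 at -3.02 and Pdgfra at -1.68, and 5 did not pass. Of 7 luminal epithelial markers, Cdh1 was higher by 1.18 and 6 did not pass. Of 7 basal markers 0 passed in limma, also at an unadjusted p under 0.05, and of 8 skeletal muscle markers 0 passed and 1 was lower at an unadjusted p under 0.05.

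Of 23 genes of lipoprotein hydrolysis and fatty acid uptake tested out of 25 listed, 7 were lower in carcinomas, 3 were higher and 13 did not pass, with a median log2 change of -0.71. Of all genes tested 13.2% were lower, and the share that was higher is near the 9.73% of all genes tested. Lower were Angptl4, an inhibitor of lipoprotein lipase, at -4.29, Gpihbp1, which holds lipoprotein lipase on the capillary wall, at -2.83, and Acsl1, which activates fatty acids for storage, at -2.70. Among the genes that were higher were the fatty acid activating gene Acsl3 at 1.56 and Vldlr, which binds triglyceride-rich lipoproteins, at 0.89. Vldlr cleared the background on 13 of 13 carcinomas and 5 of 6 normal glands, and its direction turned under normexp background correction (-0.25) and within slide 3 (-0.20), against its 1 normal gland. With array brightness as a covariate, 2 of the 23 were lower and 0 were higher in limma (3 higher at an unadjusted p under 0.05). Without normal gland 3, or under normexp, 1 was higher.

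**Figure D3:**
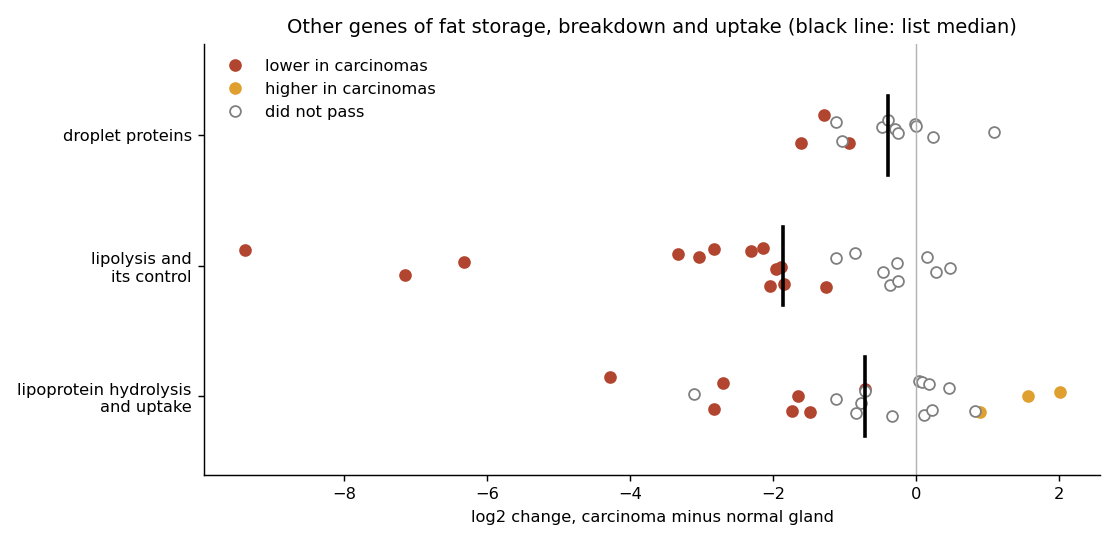
Each point is 1 gene of 3 lists that hold none of the 8 measured genes; the x axis is the log2 change, carcinoma minus normal gland, filled points passed the test, open points did not, and black lines are list medians. The medians are -0.39 for 13 droplet proteins, -1.87 for 22 lipolysis genes and -0.71 for 23 hydrolysis and uptake genes.

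The size of the change differed between related genes. For 4 pairs, the log2 value of one gene was reduced by that of the other on the same array, a difference that does not depend on the scaling of the array, and the group means of this difference were tested by exact permutation (2-sided, 27132 assignments), adjusted over the 4 pairs. Such a difference shows unequal change between the groups and not which gene is the more abundant.

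The droplet coat gene Plin2 and the fusion gene Cidec differed most. Plin2 minus Cidec averaged 10.22 ± 0.84 in carcinomas (SD, n = 13) and 4.99 ± 0.78 in normal glands (SD, n = 6). All 13 carcinomas lay above all 6 normal glands, from 8.82 upward against at most 6.25. The change of 5.24 had an exact permutation p of 3.69e-05, the smallest the design allows (adjusted p = 0.000147). Under normexp background correction it was 3.31. This pair was added after the data were seen, so its p-value describes these values and is no independent test.

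Cidea minus Cidec averaged 5.97 ± 2.51 in carcinomas (SD, n = 13) and 2.55 ± 1.31 in normal glands (SD, n = 6). Of the carcinomas, 10 lay above all normal glands, and carcinomas 3 and 7 were highest at 10.33 and 10.31. Cidec therefore fell by 3.42 more than Cidea on the log2 scale (exact permutation p = 0.00608, adjusted p = 0.0122). Under normexp background correction the difference was 1.63 and did not pass (exact permutation, adjusted p = 0.123).

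Cd36 minus Fabp4 averaged 3.37 ± 2.78 in carcinomas (SD, n = 13) and 0.14 ± 0.32 in normal glands (SD, n = 6). In normal glands it kept to a narrow band from -0.24 to 0.68. Carcinomas reached 9.35 in carcinoma 6, which had the highest Cd36 and the lowest Fabp4 of all carcinomas, and 8.40 in carcinoma 11. Carcinoma 2, at -0.19, was the only one within the normal band. The change of 3.24 had an exact permutation p of 0.0121 (adjusted p = 0.0147).

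The lipase pair differed least. Pnpla2 minus Lipe averaged 4.08 ± 0.45 in carcinomas (SD, n = 13) and 4.75 ± 0.60 in normal glands (SD, n = 6), and the groups overlapped. The change of -0.67, in which Pnpla2 fell further, passed (exact permutation p = 0.0147, adjusted p = 0.0147). Under normexp background correction it was -1.12. It did not pass without normal gland 2 (-0.49, exact permutation adjusted p = 0.0563) or in the 15 samples whose description carries a number code in place of a letter code (-0.67, exact permutation adjusted p = 0.0516).

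Within slides 1, 2 and 3 the change was 5.41, 4.21 and 5.79 for Plin2 minus Cidec, and 4.32, 2.38 and 3.57 for Cidea minus Cidec. It was 2.34, 4.09 and 2.95 for Cd36 minus Fabp4, and -0.56, -0.58 and -0.57 for Pnpla2 minus Lipe. Each pair kept its direction in each slide.

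**Figure D4:**
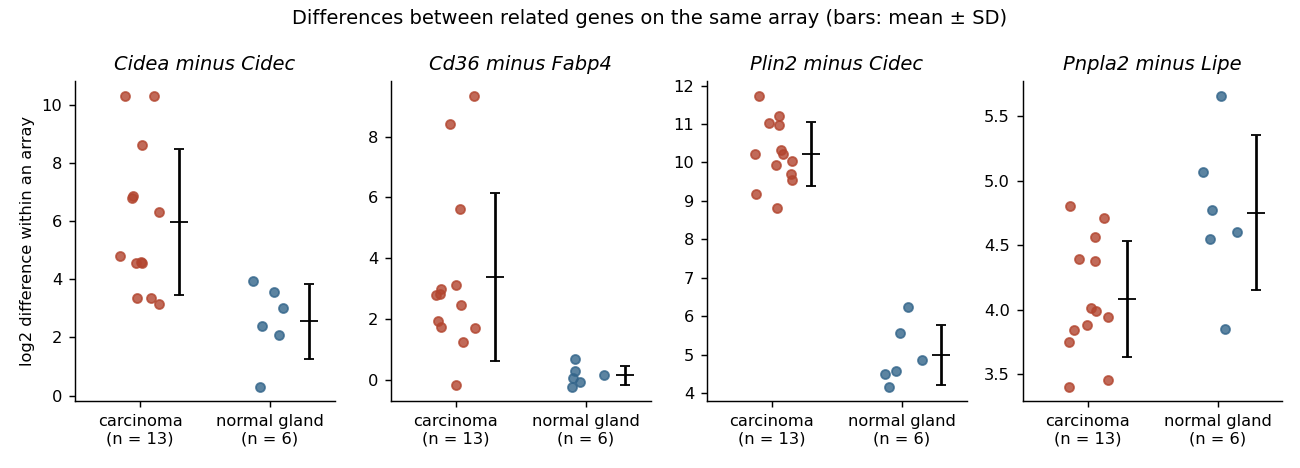
Each point is the log2 value of one gene minus that of the other on 1 array, with carcinomas in red on the left and normal glands in blue on the right of each panel, and black bars give the mean ± SD (n = 13 and n = 6); the panels have different y axes. For Plin2 minus Cidec all carcinomas lie above all normal glands, while for Pnpla2 minus Lipe the points overlap.

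Carcinoma 7 was the highest carcinoma for 7 of the 8 genes, all but Cd36. Its array was the dimmest of the carcinoma arrays, with a 75th percentile of 485 and 62.3% of spots well above background. Its milk protein score was the highest of the carcinomas at 3.13, and its basal marker score was the lowest at -3.64. Its adipocyte marker score was -2.53, within the carcinoma range of -3.66 to -1.15 and far below the normal gland range of 3.64 to 4.91. A score is the mean of a list's log2 values, each gene centred on its mean over the arrays.

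Milk genes themselves varied widely over the carcinomas. The milk protein score ran from -10.02 to 3.13 in carcinomas and from 1.60 to 3.18 in normal glands. All 5 milk protein genes were lower in carcinomas at an unadjusted p under 0.05 in limma, and 1 passed after adjustment, the whey acidic protein gene Wap at a log2 change of -5.63. With array brightness as a covariate 0 of the 5 were lower in limma, also at an unadjusted p under 0.05. Of 8 genes of milk fat droplet secretion, 1 was lower, namely Dgat1 at -1.29, which makes triglyceride, and 7 did not pass.

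Plin2 followed the milk protein score over the 13 carcinomas. Pearson's r was 0.818 (permutation p = 0.0004, adjusted p = 0.0064 over 16 relations) and Spearman's rho was 0.775 (permutation p = 0.00296, adjusted p = 0.0474). Carcinomas 5 and 8 had the lowest score, and they also had the lowest Plin2 values at 2.17 and 3.01. Without these 2 carcinomas, which lay farthest from the median score, r was 0.561 (permutation p = 0.0731). The size of r thus depends on these 2, and the relation did not reach p under 0.05 without them. Leaving out only carcinoma 5 or only carcinoma 8 gave r of 0.712 and 0.784. After centring within slide r was 0.808, and it was 0.834 in the 10 number-coded carcinomas and 0.801 after a straight line in array brightness was removed. No slide held 6 carcinomas, so r was not computed within 1 slide.

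No other gene passed against the milk protein score. Lpl was nearest, with r = 0.555 (permutation p = 0.0452, adjusted p = 0.218) and rho = 0.67 (permutation p = 0.0152, adjusted p = 0.122). Without carcinomas 5 and 8 it gave r = 0.708 (permutation p = 0.0123).

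Carcinoma 11 stood apart in its adipocyte marker score, so the correlations over all 13, which count among the 16 relations, are not given. Over the other 12, the 8 genes gave r from -0.752 (Lipe) to 0.0837 (Cd36). Only Lipe passed (permutation p = 0.00616, adjusted p = 0.0493 over 8 relations), in the negative direction. It did not pass by rank (rho = -0.538, permutation p = 0.076, adjusted p = 0.304), and without carcinomas 5 and 7 r was -0.438 (permutation p = 0.203). Of the score's genes, Adipoq, Rbp4, Pck1, Lep and Car3 cleared the background on 8, 7, 6, 4 and 9 of the 13 carcinomas. Each other marker did so on at least 12. Probes not above background had a median log2 value of -8.62 on the array of carcinoma 11, the lowest of all arrays. The part of background in the score and these correlations was not tested.

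**Figure D5:**
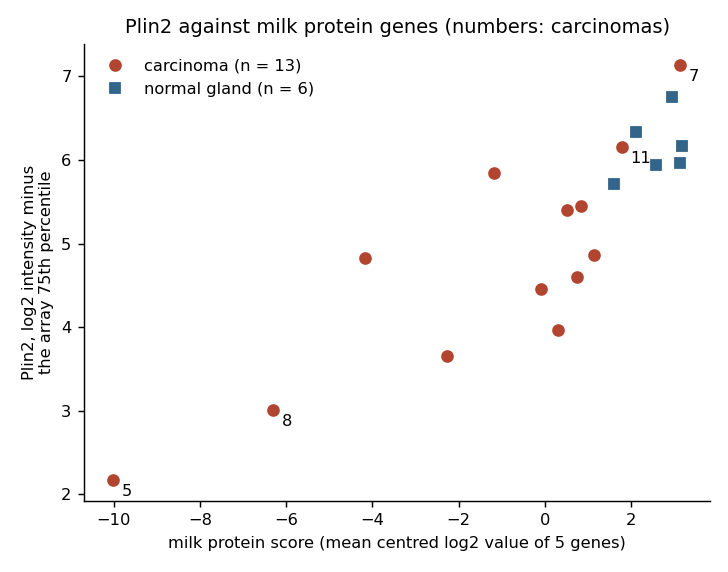
The x axis is the milk protein score, the mean centred log2 value of 5 genes, and the y axis is the Plin2 log2 intensity minus the array's 75th percentile; red circles are 13 carcinomas and blue squares 6 normal glands. Carcinomas 5 and 8 lie at the lower left and carcinoma 7 at the upper right, above the normal glands.

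The genes whose values over the 13 carcinomas were most like the mean of the 8 were Tatdn2 (r = 0.948), the casein gene Csn1s2b (r = 0.928), the metal ion transporter gene Slc39a8 (r = 0.927), the sialic acid activating gene Cmas (r = 0.923) and the thrombomodulin gene Thbd (r = 0.91). They were picked as the highest of 12595 genes outside all lists, so their r is a description. Without carcinoma 7 the same genes gave r of 0.851, 0.845, 0.809, 0.771 and 0.712.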

How the data were processed

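RNA from 13 carcinomas and 6 normal glands was hybridised to 1 array each. Agilent Feature Extraction (10.7.3.1) extracted the signals, per the submitters' processing notes. The deposited scanner files hold, per the file headers, a background-subtracted intensity for each spot and flags for spots that are uneven, saturated or well above background. A log2 table was deposited as well, with a 75th percentile of 0 on every array. Its scaling was read from the values and it was used as an alternative.

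From each log2 intensity the 75th percentile of its array's 58717 non-control spots was subtracted. Spots marked uneven or outlying were treated as missing, and spots of a probe were averaged. No spot was saturated. A probe was kept when at least 0.5 of its spots were well above background on at least 6 arrays, and the probe with the highest mean stood for its gene. Of 30367 probes, 18005 had a symbol through RefSeq accessions. The 12789 genes left were fitted with limma 3.58.1 in R 4.3.3, 2-sided, with a variance trend and Benjamini-Hochberg adjustment at 0.05. The fit was tested on simulated data. Signal over background and the number of arrays limit the precision.

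The genes and lists described were chosen with earlier results of these data known. From each pathway list the 3 largest changes past the threshold in each direction are named, and from each marker list the 2 largest; Vldlr, Gpihbp1, Angptl4, Abhd5, G0s2 and Mgll are always given, and 1 gene that the rule takes is not reported here. Of 5 pairs planned, 2 needed Plin1 and were not run. Normexp used the deposited median intensity of the spot. Alternatives changed the background, normalization, filters, probe choice, slide, scan day, code series, brightness, pairing and samples.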

Additional observations from a re-analysis of the deposited data

Results flagged for a closer look

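In 2 of 51 sets of normal gland values, 1 array stood apart from the others by Dixon's gap test, which chance gives in about 1 set in 20. The Abhd5 log2 value of normal gland 6 was 1.43, while the other normal glands lay between -1.20 and -0.76. The Cldn5 log2 value of normal gland 3 was 0.30, while the other normal glands lay between -1.23 and -0.80.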

How the results depend on the processing

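All 312 changes of the 8 genes under 39 alternatives were below 0. Cidec passed under all 39, Fabp4 and Pnpla2 under 38, Lipe, Lpl and Cd36 under 36, Cidea under 33 and Plin2 under 8. Leaving out 1 array at a time, 6 to 8 of the 8 genes were lower, 2 to 3 droplet proteins, 12 to 14 lipolysis genes and 5 to 8 uptake genes, and 1 to 3 uptake genes were higher. Genes lower numbered 2 within slide 2, 2 within slide 3 and 3 with array brightness as a covariate. Under normexp 6 droplet proteins and 13 uptake genes were lower and 1 uptake gene was higher. Within slide 1, 1 droplet protein and 3 uptake genes were lower. Within slide 2 these were 0 and 4, with 7 lipolysis genes lower and 1 uptake gene higher. Within slide 3 they were 0 and 1, with 3 lipolysis genes lower and 0 uptake genes higher. With brightness as a covariate they were 0 and 2, with 6 lipolysis genes lower and 0 uptake genes higher. Vldlr turned to -0.25 under normexp and -0.20 within slide 3. Slides hold few arrays, and slide 3 holds 1 normal gland, whose spread is assumed to be that of the carcinomas there. The share of all genes that was lower under these alternatives is not given here. Other causes were not tested.

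Leaving out 1 array gave 2.97 to 3.70 for Cidea minus Cidec, -0.85 to -0.49 for Pnpla2 minus Lipe, 2.74 to 3.53 for Cd36 minus Fabp4 and 5.08 to 5.49 for Plin2 minus Cidec. Under normexp Cidea minus Cidec was 1.63, Plin2 minus Cidec 3.31 and Pnpla2 minus Lipe -1.12. Pnpla2 minus Lipe was -0.67 in number-coded samples, and Plin2 minus Cidec was 4.21 within slide 2. Whether replicate numbers pair the samples is not labelled. Same-numbered deviations correlated above 0.1 in 1 of 6 pairs, and 1 of 6 samples matched its own number best. This cannot exclude a pairing, since samples of 1 animal need not deviate together. With the replicate block, over 6 samples a group, all 8 genes were lower, and 8 were without the block in the same samples. The pairs then gave 3.21, -0.46, 3.55 and 4.86, with exact permutation adjusted p of 0.0625, 0.156, 0.0833 and 0.0625. The block allowed only 64 assignments. Cidea minus Cidec and Plin2 minus Cidec were higher in the carcinoma for every shared number, so their unadjusted p was the smallest the block allows. Their adjusted p therefore cannot show that the difference is absent under pairing. Pairs had no value with brightness as a covariate or without a variance trend.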
